A study of Rattus norvegicus with 21 samples.

Results

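Genes of cholesterol synthesis were followed in a rat model of intrahepatic cholangiocarcinoma, which arises from bile ducts within the liver. The set was defined by name as 8 enzymes of the pathway, Hmgcs1, Idi1, Fdps, Fdft1, Sqle, Lss, Nsdhl and Sc5d, and 7 of them were measured, out of 14218 genes on the arrays. The measured enzymes had 13 probe sets that the array annotation names for a single gene, and the one with the highest mean over all 21 arrays stood for each gene. No probe set carries the name of Hmgcs1 in the annotation used, so Hmgcs1 was not analysed here. All 8 genes encode synthesis enzymes and none takes up cholesterol, so uptake is described from a separate list.

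Tumours came from BDEneu cells, rat cholangiocytes (bile duct lining cells) transformed with an activated neu (Erbb2) oncogene. The animals were 9 male, young adult Fischer 344 rats, with 3 rats each sampled at days 10, 15 and 25 after inoculation. The 7 groups of 3 arrays were tumours at days 10, 15 and 25, peritoneal metastases at day 25, and the normal right liver lobe of the same tumour-bearing rats at days 10, 15 and 25. No liver of a rat without a tumour was used here, and the labels describe 1 cell line. Levels are log2 values that the authors made with RMA, a normalization across arrays, so a difference of 1 is a 2-fold change. Array medians over all probe sets lay between 5.98 and 6.06. The description of each day 25 liver names day 55, whereas title and source name day 25, which was used.

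Cholesterol is built from acetyl-CoA through mevalonate, isoprene units, squalene and lanosterol. When the sterol content of a cell falls, the transcription factor SREBP-2 (encoded by Srebf2) is escorted to the Golgi by Scap, cut by proteases and moves to the nucleus, where it switches on nearly all of these enzymes together, whereas Insig proteins hold it back when sterols are plentiful. The liver is a main site of this synthesis and feeds it into lipoproteins and bile acids.

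Promoters are shown because SREBP-2 acts at promoters, with NF-Y and Sp1 as partners. The 4 shown belong to all measured enzymes with a promoter entry but Nsdhl, whose day 15 minus day 10 liver difference was the smallest. Sqle, with the largest such difference, had no entry. RefSeq promoter entries (assembly GRCr8, 250 bases before to 50 bases after the start site) matched 6 of the 8 genes, all but Fdft1 and Sqle. The 4 sequences lie on the minus strand, at chr17:66547475-66547774 (Idi1), chr20:12118181-12118480 (Lss), chr2:176804767-176805066 (Fdps) and chr8:51538228-51538527 (Sc5d), and capitals mark matches of CCAAT (the NF-Y box) and GGGCGG (an Sp1 box) on either strand.
Idi1: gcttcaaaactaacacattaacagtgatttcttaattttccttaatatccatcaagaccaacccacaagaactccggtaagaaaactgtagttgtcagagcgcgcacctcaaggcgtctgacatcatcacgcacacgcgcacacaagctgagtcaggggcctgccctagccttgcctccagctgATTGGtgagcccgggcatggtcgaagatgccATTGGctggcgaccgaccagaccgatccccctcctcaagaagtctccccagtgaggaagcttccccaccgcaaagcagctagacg
Lss: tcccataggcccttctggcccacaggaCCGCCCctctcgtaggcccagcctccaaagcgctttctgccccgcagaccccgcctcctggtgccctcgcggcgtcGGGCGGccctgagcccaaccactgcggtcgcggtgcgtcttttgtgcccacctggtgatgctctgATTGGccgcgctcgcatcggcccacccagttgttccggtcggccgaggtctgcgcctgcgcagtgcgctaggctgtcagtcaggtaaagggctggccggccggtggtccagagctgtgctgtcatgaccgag
Fdps: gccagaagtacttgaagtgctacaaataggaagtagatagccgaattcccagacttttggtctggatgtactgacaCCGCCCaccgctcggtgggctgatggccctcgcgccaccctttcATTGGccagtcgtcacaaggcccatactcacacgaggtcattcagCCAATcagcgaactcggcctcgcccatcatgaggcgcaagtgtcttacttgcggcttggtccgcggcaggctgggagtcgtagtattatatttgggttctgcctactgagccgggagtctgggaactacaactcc
Sc5d: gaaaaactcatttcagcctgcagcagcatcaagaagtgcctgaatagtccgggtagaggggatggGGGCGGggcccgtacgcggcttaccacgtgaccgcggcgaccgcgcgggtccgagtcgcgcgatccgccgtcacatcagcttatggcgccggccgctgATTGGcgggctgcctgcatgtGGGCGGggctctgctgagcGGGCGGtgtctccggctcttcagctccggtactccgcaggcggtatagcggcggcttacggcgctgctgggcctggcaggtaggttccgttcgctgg
CCAAT was found in all 6 promoters, against 37.49% of 33469 rat promoters of the same length. GGGCGG was found in 4 of the 6 (Hmgcs1, Fdps, Lss and Sc5d), against 33.06% of all promoters. The core of the sterol regulatory element, searched as TCACNCCAC, was found in none of the 6 and in 1.12% of all promoters. The 3 motifs do not overlap in these windows, and a match of letters describes the sequence only.

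Idi1 isomerises isopentenyl diphosphate, the building block of all isoprenoids. Its log2 levels were 9.80, 9.98 and 9.82 in day 10 tumours, 9.32, 9.75 and 9.07 in day 15 tumours, 10.67, 9.42 and 9.54 in day 25 tumours and 10.81, 9.66 and 9.66 in metastases. In the liver they were 9.65, 9.25 and 9.43 at day 10, 11.01, 9.66 and 10.53 at day 15 and 8.85, 9.27 and 9.59 at day 25. Day 15 livers had the highest mean, but their lowest array (9.66) lay next to the highest day 10 liver (9.65), and rat 7 held the high value in both day 25 tumours and metastases. In the order of means (livers at day 15, metastases, tumours at day 25 and day 10, livers at day 10, tumours at day 15, livers at day 25), only day 10 tumours and day 10 livers were neighbours whose arrays did not overlap.

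Fdps makes farnesyl diphosphate, the branch point between sterols and the lipid anchors of proteins. Its levels were 11.21, 11.08 and 11.20 in day 10 tumours, 10.72, 11.40 and 10.54 in day 15 tumours, 11.37, 10.64 and 10.71 in day 25 tumours and 11.30, 10.73 and 10.84 in metastases. In livers they were 11.80, 11.65 and 11.71 at day 10, 12.11, 11.98 and 11.94 at day 15 and 10.06, 10.42 and 11.07 at day 25. The 3 day 15 livers stood above every other array, day 10 livers came next without overlap, and the lowest array of all was the day 25 liver of rat 7.

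Fdft1 is squalene synthase, which commits farnesyl diphosphate to sterols. Its levels were 9.03, 8.60 and 8.83 in day 10 tumours, 8.31, 9.09 and 7.87 in day 15 tumours, 8.65, 8.16 and 8.24 in day 25 tumours and 8.73, 8.32 and 8.07 in metastases. In livers they were 10.14, 10.07 and 10.26 at day 10, 11.12, 10.32 and 10.72 at day 15 and 8.31, 9.08 and 9.40 at day 25. Livers at day 15 were above livers at day 10 and these above livers at day 25, with no overlap between neighbours, whereas day 25 livers overlapped with every tumour group and the metastases.

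Sqle is squalene epoxidase, an oxygen-dependent and closely controlled step. Its levels were 8.71, 8.67 and 8.47 in day 10 tumours, 8.26, 8.52 and 8.02 in day 15 tumours, 9.86, 8.43 and 8.25 in day 25 tumours and 10.15, 8.68 and 8.65 in metastases. In livers they were 7.91, 7.05 and 7.36 at day 10, 9.46, 8.18 and 9.29 at day 15 and 8.05, 7.86 and 8.10 at day 25. Metastases had the highest mean (9.16 ± 0.86, SD, n = 3), ahead of day 15 livers (8.98 ± 0.70), and each group overlapped with its neighbour in the order of means. Rat 7 gave the high value of both the day 25 tumours and the metastases.

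Lss is lanosterol synthase, which closes the sterol ring system. Its levels were 8.10, 7.88 and 8.14 in day 10 tumours, 7.61, 8.17 and 7.44 in day 15 tumours, 8.15, 7.64 and 7.81 in day 25 tumours and 8.23, 7.64 and 7.80 in metastases. In livers they were 8.89, 8.75 and 8.99 at day 10, 9.76, 9.34 and 9.80 at day 15 and 7.17, 8.19 and 8.74 at day 25. Day 15 livers were highest and day 10 livers next, both without overlap with the group that followed, and day 25 livers spread over the whole range of the tumours and beyond it at both ends.

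Nsdhl is a sterol dehydrogenase that helps to remove methyl groups from the lanosterol ring. Its levels were 9.84, 9.23 and 9.76 in day 10 tumours, 8.85, 10.13 and 8.24 in day 15 tumours, 7.94, 8.60 and 9.14 in day 25 tumours and 8.25, 8.20 and 7.88 in metastases. In livers they were 11.67, 11.65 and 11.55 at day 10, 11.50, 11.68 and 11.46 at day 15 and 9.19, 10.67 and 10.95 at day 25. Nsdhl had no peak in day 15 livers, whose mean of 11.54 ± 0.12 lay beside 11.62 ± 0.06 in day 10 livers (SD, n = 3 each) with overlapping arrays.

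Sc5d inserts a double bond near the end of the pathway. Its levels were 9.58, 8.93 and 9.36 in day 10 tumours, 8.68, 9.73 and 8.42 in day 15 tumours, 8.96, 8.85 and 8.75 in day 25 tumours and 9.30, 8.54 and 8.52 in metastases. In livers they were 10.78, 10.64 and 10.90 at day 10, 11.23, 10.98 and 10.97 at day 15 and 9.70, 9.93 and 10.19 at day 25. Livers kept the order day 15, day 10, day 25 with no overlap between neighbours, and day 25 livers also stood above day 10 tumours without overlap.

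**Figure D1:**
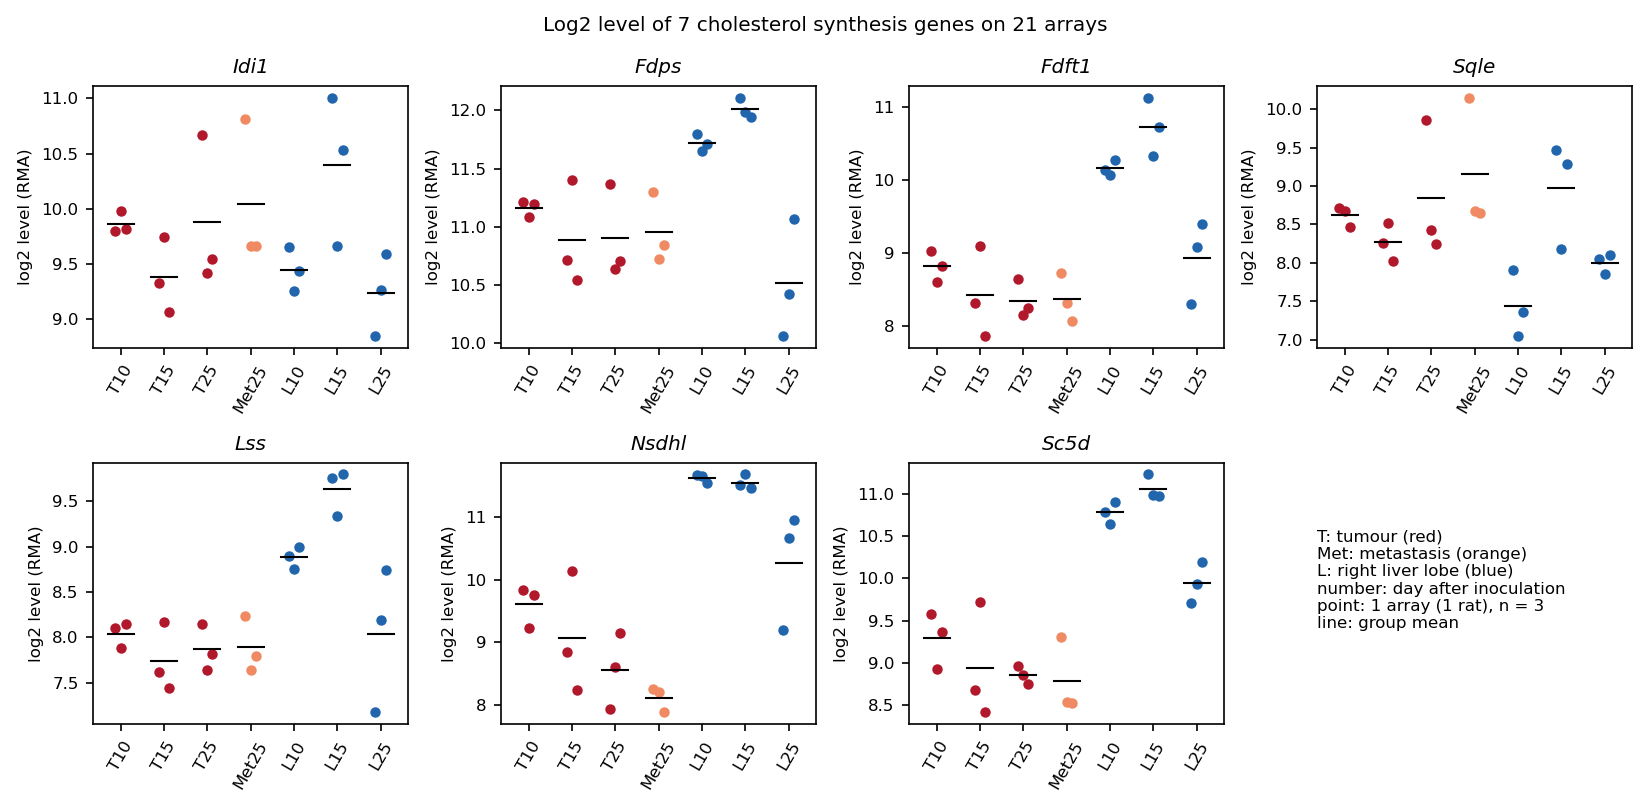
Log2 level (y axis, RMA) of the 7 measured enzymes by group (x axis, T tumour, Met metastasis, L right liver lobe, number the day), 1 point per array and a line at the mean of 3. Day 15 livers have the highest mean for 5 enzymes, Nsdhl has means of 11.54 in day 15 and 11.62 in day 10 livers, and Sqle is highest in metastases (mean 9.16).

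Further probe sets of 5 genes served as a check. For Idi1, Fdft1, Lss, Nsdhl and Sc5d the sign of the day 15 minus day 10 liver difference was the same in every probe set, from 0.89 (Idi1) down to -0.13 (Nsdhl) in those not used. The tumour minus liver difference at day 10 was -1.29 in the second probe set of Fdft1, against -1.34 in the one used, and -2.16 against -2.01 for Nsdhl.

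Within the livers most of the enzymes shared a shape over the days, high at day 15 and low at day 25. Between day 15 and day 10 livers the log2 difference was 1.54 (SE 0.43) for Sqle, 0.96 (SE 0.37) for Idi1, 0.75 (SE 0.29) for Lss, 0.57 (SE 0.30) for Fdft1, 0.29 (SE 0.25) for Fdps, 0.28 (SE 0.27) for Sc5d and -0.08 (SE 0.44) for Nsdhl. Between day 25 and day 15 livers it ran from -0.98 (Sqle) to -1.79 (Fdft1). The day 15 livers lay above all day 10 livers for 6 of 7 enzymes, where 11% of all genes did so, and the day 25 livers lay below all day 15 livers for 7 of 7, where 10.5% of all genes did so. Because these enzymes were picked for a peak in day 15 livers, those counts describe the choice and carry no test.

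Levels at day 25 and day 10 can be compared without the day 15 livers, so this pair was tested with limma, p-values being adjusted by the Benjamini-Hochberg method over 14218 genes. At an adjusted p under 0.05, the threshold used for every call, 2 of 7 enzymes fell and none rose, where 3.77% of all genes fell and 5.33% rose. Fdft1 fell by 1.23 on the log2 scale (SE 0.30, adjusted p = 0.019), to 8.93 ± 0.56 in day 25 livers, against 10.16 ± 0.10 in day 10 livers (SD, n = 3 each). Fdps fell by 1.20 (SE 0.25, adjusted p = 0.00812), to 10.52 ± 0.51, against 11.72 ± 0.07. The difference was -1.35 for Nsdhl (SE 0.44, adjusted p = 0.0665), -0.85 for Lss (SE 0.29, adjusted p = 0.0843) and -0.84 for Sc5d (SE 0.27, adjusted p = 0.0685), none of which was called although the arrays of both days were apart. Idi1 at -0.21 and Sqle at 0.56 had overlapping arrays. In all, the day 25 livers lay below all day 10 livers for 5 of 7 enzymes, where 15.3% of all genes did so. Fdps was called in all 30 alternatives run. Fdft1 was not called without all arrays of rat 7 (-0.92, adjusted p = 0.0648), without the day 25 liver of rat 7 alone (adjusted p = 0.094), or without the day 10 liver of rat 2 (adjusted p = 0.0507) or rat 3 (adjusted p = 0.0695). Without the day 25 liver of rat 9, Lss (-1.20, adjusted p = 0.011) and Nsdhl (-1.69, adjusted p = 0.0303) were called too. Nsdhl was also called under median centring (-1.44, adjusted p = 0.0444), and Nsdhl and Sc5d without the day 15 tumour of rat 5 or rat 6.

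Spread among the 3 day 25 livers was wide and had the same order for most of the enzymes. The mean log2 level of the 7 enzymes was 8.76 in the liver of rat 7, 9.34 in that of rat 8 and 9.72 in that of rat 9, against 10.12, 9.87 and 10.03 in day 10 livers. Rat 7 was lowest for 6 of the 7, all but Sqle. The mean of 13 hepatocyte markers was 13.07, 12.65 and 12.61 in the same 3 livers, highest in rat 7, and none of the 13 was called between liver days. Of all genes 0.0281% were called between day 15 and day 10 livers, and 5.33% rose and 3.77% fell between day 25 and day 10. The part of hepatocyte content in the enzyme levels was not tested.

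**Figure D2:**
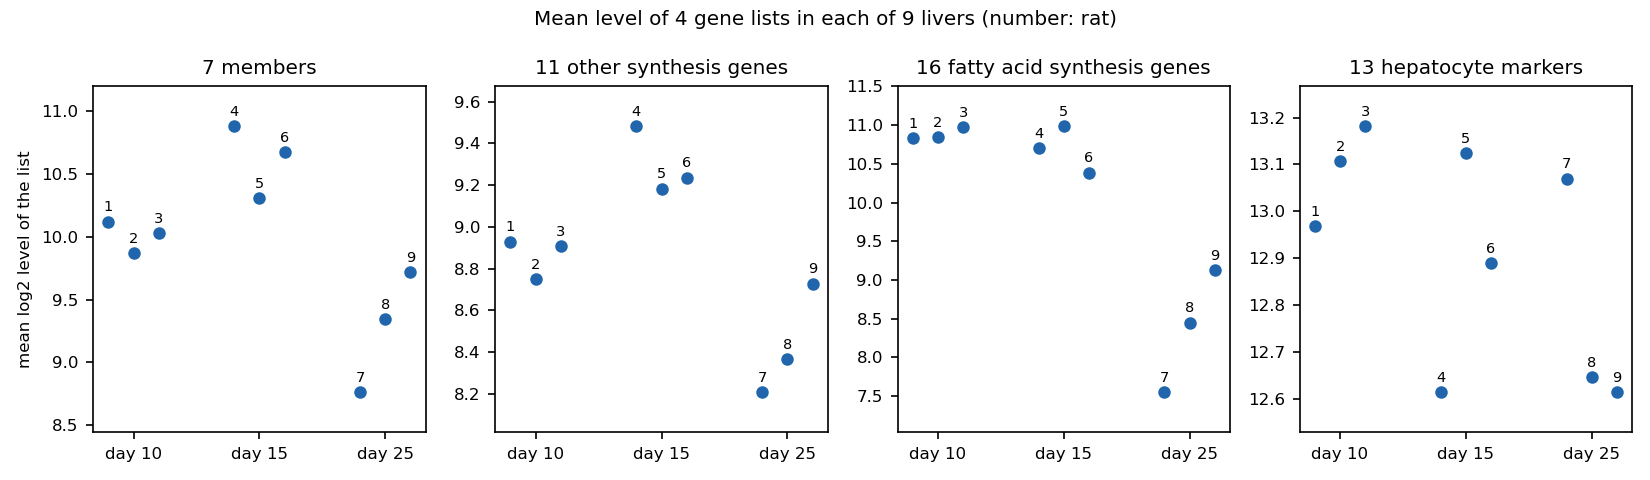
Mean log2 level (y axis) of 4 gene lists in each of the 9 livers by day (x axis), each point numbered by rat. The 7 enzymes ("members") and 11 other synthesis genes are highest at day 15 and the 16 fatty acid synthesis genes are level between days 10 and 15 and low at day 25 (7.55 in rat 7), while the hepatocyte markers keep within 12.61 to 13.18.

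The rest of the cholesterol pathway was read from a list of 13 other synthesis genes, of which 11 were measured. All 11 were above 0 between day 15 and day 10 livers, with a median of 0.40 against 0.01 over all genes. For 7 of them the day 15 arrays lay above all day 10 arrays, where 11% of all genes did so. None was called, and 4 of all genes were (0.0281%). An unadjusted p under 0.05 in limma was found for 3 of the 11, a count given without the share of all genes. Between day 25 and day 15 livers 5 of the 11 fell and none rose, where 1.38% of all genes fell. They were Acat2, which makes acetoacetyl-CoA (-1.65, SE 0.35, adjusted p = 0.0208), Msmo1, the methyl oxidase that works before Nsdhl (-1.24, SE 0.30, adjusted p = 0.0432), the sterol reductase Tm7sf2 (-1.13, SE 0.28, adjusted p = 0.045), phosphomevalonate kinase Pmvk (-1.10, SE 0.22, adjusted p = 0.0147) and lanosterol demethylase Cyp51 (-1.08, SE 0.27, adjusted p = 0.0498). Against day 10 livers only Pmvk fell (-0.87, SE 0.22, adjusted p = 0.0206), and Acat2 stood at -1.12 (adjusted p = 0.0565). The 5 calls between day 25 and day 15 lay near the threshold: 2 remained after quantile normalization, 3 after centring each array on its median, and 0 to 7 when 1 array was left out. No gene was called without the day 15 liver of rat 4, and 1 was called without the day 15 liver of rat 6 or the day 25 liver of rat 7 or rat 8.

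Fatty acid synthesis, driven in the liver mainly by SREBP-1c (Srebf1), was read from a further list. None of its 16 listed genes was called between day 15 and day 10 livers (median -0.22), where only 0.0281% of all genes were. Between day 25 and day 10 livers 15 of 16 fell, with a median of -2.54, against -0.85 for the 7 cholesterol enzymes and -0.01 for all genes. Of all genes 3.77% fell there. The largest falls were those of the lipid droplet protein Pnpla3 (-4.68, SE 0.87, adjusted p = 0.00462), stearoyl-CoA desaturase Scd (-3.34, SE 0.94, adjusted p = 0.0359) and the desaturases Fads2 (-3.33, SE 0.73, adjusted p = 0.0103) and Fads1 (-3.19, SE 0.59, adjusted p = 0.00434). Srebf1 itself was among the 15 (-2.27, SE 0.40, adjusted p = 0.00313), and Thrsp was uncalled at -2.81 (adjusted p = 0.107). Srebf2 was at -0.02 (SE 0.11, adjusted p = 0.941) in the same comparison.

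Markers of other cells moved with liver day. Between day 25 and day 10 livers 5.33% of all genes rose and 3.77% fell. Of 6 neutrophil markers 5 rose in day 25 livers against day 10 livers (median 2.61), with S100a8 at 4.44 and Il1r2 at 3.67, and their mean level was 8.53, 8.78 and 8.11 in day 25 livers, against 6.41, 6.08 and 5.49 in day 10 livers. Of 10 biliary markers 4 rose and none fell (Cd24 at 1.77, Tspan8 at 1.74, Krt8 at 1.46 and Krt18 at 1.44), while Krt19 was uncalled at 1.08 and Epcam at 0.52. Their mean was 8.33, 7.38 and 6.92 in the day 25 livers of rats 7, 8 and 9, against 6.71 to 6.72 in day 10 livers. The liver with the least of the enzymes thus had the highest mean of this list. Krt8 and Krt18 were not particular to the tumour tissue. Mean Krt18 was 12.37 in day 25 livers, against 11.55 in metastases, and mean Krt8 11.83 against 12.39, whereas mean Krt19 was 6.21 against 12.42. Of 8 macrophage markers 3 rose (Gpnmb at 1.25, Cd163 at 1.20 and Cd68 at 0.77), with means of 9.24 to 9.85 in day 25 livers, against 8.87 to 9.13 in day 10 livers. Of 8 fibroblast markers 2 rose (Dcn at 2.34 and Col1a2 at 1.42), with overlapping means of 8.00 to 9.15 in day 25 livers and 7.17 to 8.36 in day 10 livers. Of 7 lymphocyte markers none rose and 1 fell. Between day 15 and day 10 livers only 0.0281% of all genes were called, so a lack of calls in that pair says little. Of 14 clock genes none was called there and 1 (Npas2, -1.62) between day 25 and day 10. Of 8 fasting response genes none was called in either comparison. The part of any of these in the enzyme levels was not tested. In whole tissue, fewer cells of a type and less RNA per cell cannot be told apart.

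**Figure D3:**
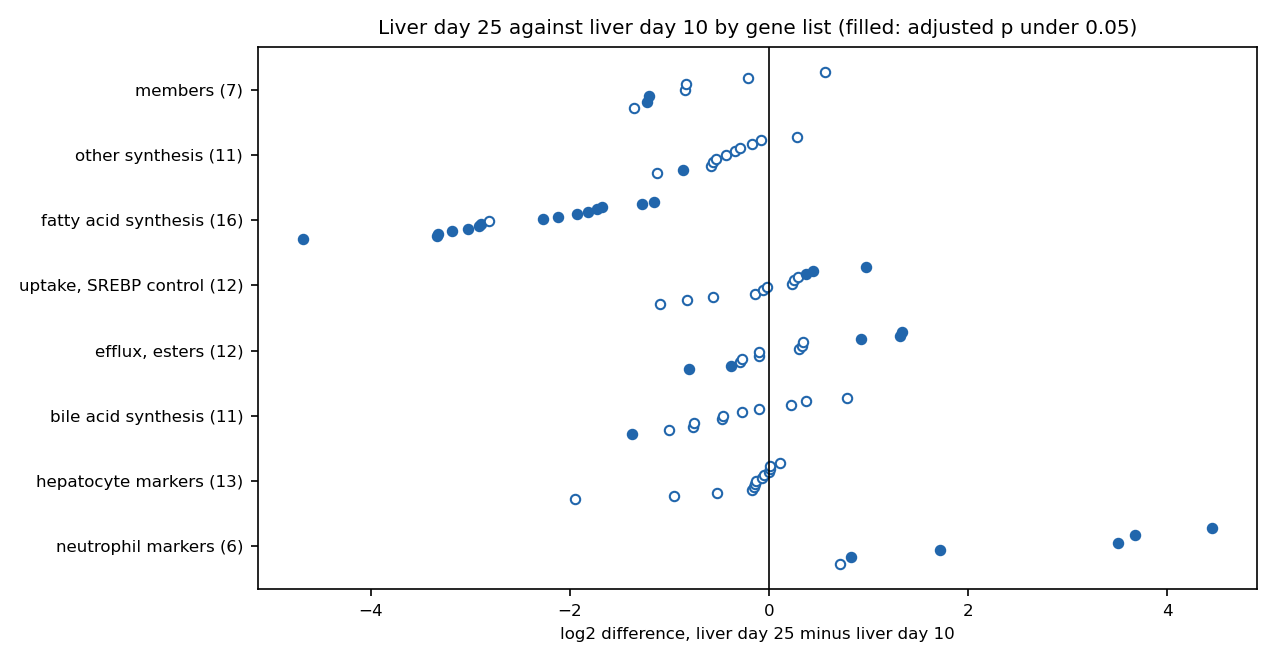
Log2 difference between day 25 and day 10 livers (x axis) for each gene of 8 lists (y axis, number of genes measured), filled where the adjusted p was under 0.05. The 7 cholesterol enzymes ("members") lie between -1.35 and 0.56 with 2 called, the fatty acid synthesis genes between -4.68 and -1.15 with 15 of 16 called, and 5 of 6 neutrophil markers are called above 0.

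Tumour against liver asked how the growing cancer differed from the organ around it. At day 10, 1 of 7 enzymes rose and 4 fell, where 30.4% of all genes rose and 28% fell. Nsdhl fell by 2.01 on the log2 scale (SE 0.44, adjusted p = 0.00106), Sc5d by 1.49 (SE 0.27, adjusted p = 0.000253), Fdft1 by 1.34 (SE 0.30, adjusted p = 0.00134) and Lss by 0.84 (SE 0.29, adjusted p = 0.0226). Sqle rose by 1.18 (SE 0.43, adjusted p = 0.0284), to 8.62 ± 0.13 in tumours, against 7.44 ± 0.43 in livers (SD, n = 3 each). Fdps was at -0.56 (SE 0.25, adjusted p = 0.0657) and Idi1 at 0.42 (SE 0.37, adjusted p = 0.343). Fdps was called lower under median centring (-0.86, adjusted p = 0.00833), without the 3 arrays with pancreatic transcripts (0.0441), without rat 7 (0.0177) and when the day 15 tumour of rat 5, the day 25 tumour or liver of rat 7 or the day 25 liver of rat 9 was left out (0.0374 to 0.0467). The call of Sqle was lost under quantile normalization (0.91, adjusted p = 0.083) and under median centring (0.87, adjusted p = 0.0929), which shifted the median of all genes in this comparison by -0.31, and 0 of 7 then rose. Sqle was also uncalled without the tumour of rat 1 (adjusted p = 0.0701) or rat 2 (0.0685) or the liver of rat 2 (0.103) or rat 3 (0.0681), and Lss without the tumour of rat 2 (0.0746), without the liver of rat 1 (0.0511) or rat 3 (0.0644), or with rat as a fixed replicate block (0.0563).

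At day 15 all 7 differences were below 0, from -0.71 (Sqle) and -1.02 (Idi1) to -2.30 (Fdft1) and -2.47 (Nsdhl), and 5 of 7 had tumours below all livers, where 30% of all genes did so. These values rest on the livers named in the choice of the genes and are given with no test. Position in the pathway and size of the difference had no plain order, with Fdft1 and Nsdhl the most negative and Sqle and Idi1 the least.

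By day 25, when the levels in the liver were low, 2 of 7 enzymes fell in tumours and none rose, where 22.4% of all genes fell and 27.7% rose, so the share of falls was near that of all genes. Nsdhl fell by 1.71 (SE 0.44, adjusted p = 0.00418) and Sc5d by 1.09 (SE 0.27, adjusted p = 0.00355), and both calls held in all 31 alternatives run. The other differences were 0.84 for Sqle (adjusted p = 0.116), 0.64 for Idi1 (adjusted p = 0.165), 0.39 for Fdps (adjusted p = 0.213), -0.17 for Lss (adjusted p = 0.663) and -0.58 for Fdft1 (adjusted p = 0.122). Without the arrays of rat 7, Fdft1 (-1.04, adjusted p = 0.0132) and Lss (-0.74, adjusted p = 0.0157) were called lower as well, which made 4 of 7. Both were also called without the liver of rat 7 alone (adjusted p = 0.0215 and 0.0444), and Fdps was called higher (0.66, adjusted p = 0.038) without the liver of rat 9. Fdft1 was also called under median centring (-0.74, adjusted p = 0.0491) and with the mean of all probe sets (-0.68, adjusted p = 0.0474). The change of the tumour-liver difference between day 25 and day 10 was tested as an interaction and called for none of the 7 (1.46% of all genes were called). The largest was 0.94 for Fdps (SE 0.35, adjusted p = 0.183). In limma 1 of 7 had an unadjusted p under 0.05, a count given without the share of all genes at that rule.

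**Figure D4:**
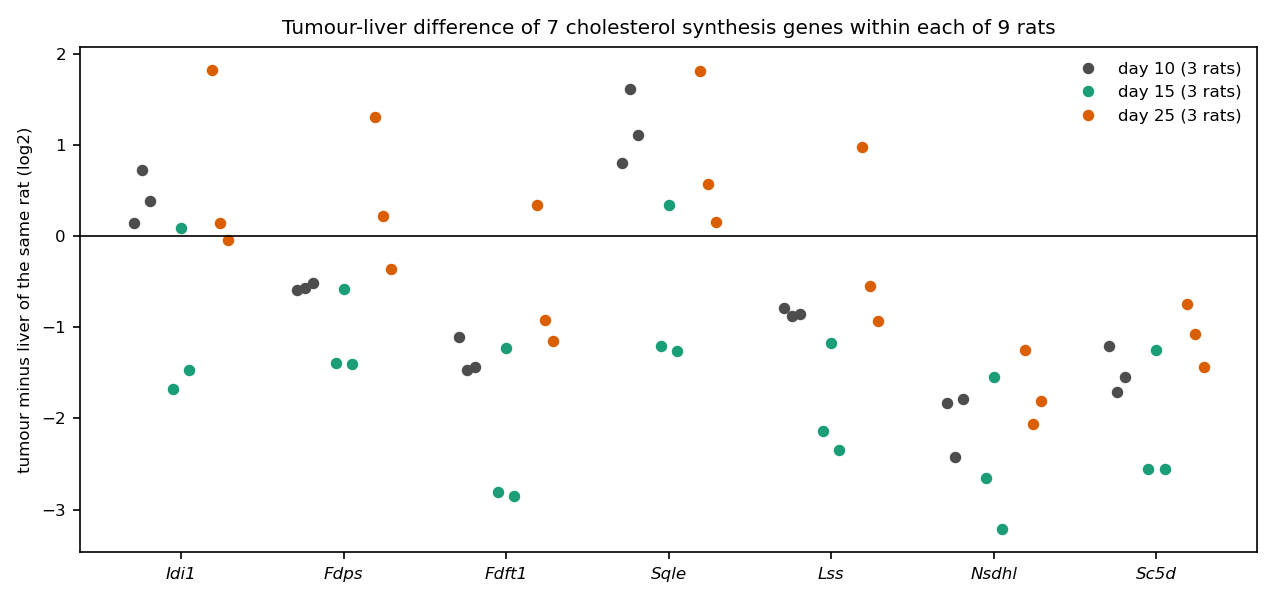
Tumour minus liver log2 difference (y axis) of the 7 enzymes (x axis) in each of the 9 rats, 1 point per rat, coloured by day. Nsdhl and Sc5d are below 0 in all 9 rats, Sqle is above 0 in 7 of 9, and rat 7 (day 25) holds the highest point of each enzyme, from -1.24 (Nsdhl) to 1.82 (Idi1).

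Within single rats the same split was seen. The tumour of every rat had less Nsdhl than its liver, by 1.24 to 3.22, and less Sc5d, by 0.74 to 2.56. Sqle was higher in the tumour of 7 of 9 rats, the exceptions being rat 4 (-1.20) and rat 6 (-1.26), both of day 15. Rats 4 and 6 gave the lowest differences of all 7 enzymes among the 9 rats, whereas rat 5, the other rat of day 15, was at 0.34 for Sqle and -1.23 for Fdft1.

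Tumour pieces also held liver transcripts, in amounts that differed between pieces. The mean of the 13 hepatocyte markers was 11.60, 10.75 and 11.68 in day 10 tumours, 10.31, 12.01 and 9.86 in day 15 tumours and 7.92, 10.53 and 10.80 in day 25 tumours, 6.20, 6.37 and 5.64 in metastases, and 12.61 to 13.18 in livers. The day 15 tumour of rat 5, with the most hepatocyte transcript, was highest of its group for all 7 enzymes. The day 25 tumour of rat 7, with the least, was highest of its group for 6 enzymes and lowest for Nsdhl. Transcripts of pancreatic acinar cells (9 markers) had a mean of 8.98 in the day 15 tumour of rat 5, 8.86 in the day 25 tumour of rat 9 and 11.18 in the metastasis of rat 8, against 5.06 to 6.65 in the other 9 tumours and metastases. The part of either in the enzyme levels was not tested.

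Between tumour days no enzyme was called in any of the 3 pairs, and few genes were (0%, 0% and 0.0563% of all genes for day 15 against 10, day 25 against 15 and day 25 against 10). Unadjusted p-values under 0.05 in limma numbered 0, 0 and 1 of the 7, counts given without the share of all genes at that rule. The largest difference was that of Nsdhl between day 25 and day 10 (-1.05, SE 0.44, adjusted p = 0.241), with no overlap of arrays. Mean Nsdhl fell over the tumours of days 10, 15 and 25, as did the hepatocyte markers, with means of 11.35, 10.73 and 9.75. Fdft1 (8.82, 8.42 and 8.35) and Sc5d (9.29, 8.94 and 8.86) fell in the same order, and the other enzymes did not. The part of liver transcripts in these levels was not tested.

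Metastases were set against the tumours of the same day. No enzyme was called between metastases and day 25 tumours (0.338% of all genes were), none had an unadjusted p under 0.05, and the differences ran from -0.45 (Nsdhl) to 0.31 (Sqle) with standard errors of 0.25 to 0.44. Against day 25 livers 1 of 7 rose and 2 fell in metastases, where 33.4% of all genes rose and 23.6% fell. Nsdhl fell by 2.16 (SE 0.44, adjusted p = 0.000552), Sc5d by 1.15 (SE 0.27, adjusted p = 0.00186) and Sqle rose by 1.15 (SE 0.43, adjusted p = 0.0314). The share of falls was near that of all genes, but Fdft1 was called lower as well under quantile normalization (-0.75) and median centring (-0.74, adjusted p = 0.045 in both), and both Fdft1 (-1.05, adjusted p = 0.0103) and Lss (-0.75, adjusted p = 0.0122) were without rat 7. Without the metastasis of rat 7 the difference of Sqle was 0.66 (adjusted p = 0.186), and Sqle was also uncalled without the day 25 liver of rat 7 (0.0552), rat 8 (0.0796) or rat 9 (0.0562) after quantile normalization (0.97, adjusted p = 0.0715), after median centring (0.97, adjusted p = 0.0671) and without all arrays of rat 7 (0.68, adjusted p = 0.1). Leaving out the day 25 liver of rat 7 likewise called Fdft1 and Lss lower (0.0215 and 0.047), that of rat 9 called Fdps higher (0.72, adjusted p = 0.0226), and the day 25 tumour of rat 7 called Idi1 higher (0.81, adjusted p = 0.0441).

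Other synthesis genes were also split between rises and falls in tumours. At day 10, Lbr, a sterol reductase of the nuclear envelope, rose (1.03, SE 0.18, adjusted p = 0.00017) and 3 of 11 fell, the late enzymes Dhcr7 (-1.37), Ebp (-1.31) and Hsd17b7 (-1.01). Of all genes 30.4% rose and 28% fell there, so the share of falls was near that of all genes. At day 15, 1 rose and 6 fell, led by Hsd17b7 (-1.92), Tm7sf2 (-1.86), Ebp (-1.85) and Dhcr7 (-1.79), where 28.2% of all genes rose and 23.6% fell. At day 25, 4 rose and 3 fell, with Acat2 at 1.55 (SE 0.35, adjusted p = 0.00159), Pmvk at 1.30 (SE 0.22, adjusted p = 0.000125), Ebp at -1.71 (SE 0.32, adjusted p = 0.000384) and Hsd17b7 at -1.18 (SE 0.30, adjusted p = 0.00371). At that day 27.7% of all genes rose and 22.4% fell, so neither share was far from that of all genes. Metastases against livers gave 5 rises and 3 falls, among them Acat2 at 1.88, Lbr at 1.41, Pmvk at 1.37 and Ebp at -2.01. In that comparison 33.4% of all genes rose and 23.6% fell, so the share of falls was again near that of all genes. Ebp (a sterol isomerase), Hsd17b7 (which acts beside Nsdhl) and Dhcr7 (the final reductase of one branch) were thus lower than liver in tumours at each day and in metastases, as Nsdhl and Sc5d were in each tested comparison.

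Uptake and control of the pathway were read from 16 listed genes, 12 of them measured. In day 10 tumours against livers 5 rose and 4 fell, and after quantile normalization or median centring 3 rose and 6 fell. As deposited, 30.4% of all genes rose and 28% fell in this comparison, so the share of falls was near that of all genes. Vldlr, a lipoprotein receptor, rose by 1.98 (SE 0.38, adjusted p = 0.00033) and Mylip, which marks lipoprotein receptors for breakdown, by 2.19 (SE 0.20, adjusted p = 2.49e-07). Insig2 fell by 2.53 (SE 0.43, adjusted p = 0.00012) and Insig1 by 1.31 (SE 0.48, adjusted p = 0.028). At day 25 the called genes of largest difference were Insig2 (-2.20), Vldlr (1.73), the HDL receptor Scarb1 (-1.16, SE 0.21, adjusted p = 0.000222) and Lrp1 (-0.88, SE 0.25, adjusted p = 0.00711). Srebf2 was at 0.18 at day 10 (adjusted p = 0.191) and 0.29 at day 25 (SE 0.11, adjusted p = 0.0421) in tumours. Its day 10 value turned to -0.03 under quantile normalization and -0.13 under median centring, and its day 25 value was uncalled at 0.18 (adjusted p = 0.217) and 0.13 (adjusted p = 0.393). Its 9 livers lay between 8.68 and 9.05. In livers Insig1, a target of SREBP-2 known to follow its activity, was at 0.63 between day 15 and day 10 and at -1.46 between day 25 and day 15 (adjusted p = 0.73 and 0.142), with 12.37 in the day 25 liver of rat 7 and 9.90 and 10.17 in those of rats 8 and 9.

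Genes that store, export or convert cholesterol were read from 2 further lists. In day 10 tumours Soat1, which esterifies cholesterol for storage, rose by 4.87 (SE 0.29, adjusted p = 1.71e-09), to 9.71, against 4.84 in livers, and Ch25h, which makes 25-hydroxycholesterol, by 3.40 (SE 0.23, adjusted p = 6.3e-09). Lcat, the plasma esterifying enzyme made by hepatocytes, fell by 2.27 (SE 0.77, adjusted p = 0.0192) and the sterol receptor Nr1h3 by 1.88 (SE 0.43, adjusted p = 0.00164). Of 12 such genes 4 rose and 5 fell, and 3 rose and 5 fell after quantile normalization. In the same comparison 30.4% of all genes rose and 28% fell, so the share of rises as deposited was near that of all genes. Of 11 bile acid synthesis genes 10 fell, with Cyp8b1 at -3.21, Slc27a5 at -2.97, Cyp7a1, which sets the rate of bile acid formation, at -2.73 and Akr1c14 at -2.51. Of 16 fatty acid synthesis genes 14 fell, with Gpam at -2.86, Pnpla3 at -2.51, Fads2 at -2.16 and Me1 at -2.12. The median difference was -2.23 for the bile acid genes and -1.85 for the fatty acid genes, beside -0.84 for the 7 enzymes and -1.85 for the 13 hepatocyte markers.

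Likeness between genes was measured by Pearson's r across arrays, as a description, since arrays of 1 group and tissues of 1 rat share a source. Over the 9 livers the 21 pairs of enzymes had a median r of 0.85, from 0.04 (Sqle with Nsdhl) to 0.98. Because the enzymes were picked for a peak in day 15 livers, high r over the livers partly describes the choice. Sqle stood apart, with r of 0.57 to the mean profile of the 7, against 0.82 to 0.98 for the others. Each enzyme is itself part of that profile, which raises its r. Over the 12 tumours and metastases the median was 0.69, and Sqle went with Idi1 (0.96) but not with Nsdhl (-0.36). Of the 12, the day 25 tumour and metastasis of rat 7 held the highest Sqle (9.86 and 10.15) and Idi1 (10.67 and 10.81). No r was computed without rat 7. Outside the set, the genes most like the mean profile over the livers were Acat2 and Cyp51 (0.98 each), both of the same pathway, then Adar, Tuba4a and Tubb2a (0.96 each), Rnf128, Rap2c, Zfyve26, Fndc3a and C20h6orf89. Over tumours and metastases they were Dennd1b (0.94), Tm7sf2 and Nudt6 (0.93 each), Hsd3b7 and Hsd17b7 (0.91 each).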

How the data were processed

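The deposited table holds the authors' log2 levels of 31099 probe sets (57 of them controls) on 21 arrays, made with RMA per the submitters' processing notes, of unstated version. Gene names came from the platform annotation (20832 probe sets with a single symbol, 436 with several, 9831 unnamed here), with symbols updated by gene ID for 20764. Each of 14218 genes, 4526 of them with several such probe sets, was read from the one whose mean was highest. Levels are not comparable between probe sets, no detection calls were used, and the number of arrays limits the precision.

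Differences were fitted with limma 3.58.1 (lmFit and eBayes) in R 4.3.3 over all 21 arrays as 7 group means, with Benjamini-Hochberg adjustment over all genes and calls at an adjusted p under 0.05. The procedure was tested on simulated data. The 8 enzymes and all gene lists were chosen with earlier results of these data known. Contrasts with day 15 livers carry no test for the 7 enzymes, because the choice names a peak there. Named list genes are up to 4 called members of largest absolute difference per comparison, up to 2 uncalled members of highest mean, Insig1 and Srebf2, and the genes of highest r. Srebf1 and the call of Cyp51 between liver days lie outside this rule and were added after their values were seen.

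The labels' rat numbers pair the tissues of an animal. The deviations of same-rat arrays from their group means correlated at 0.04 to 0.30 between tumour or metastasis and liver and at 0.04 to 0.58 between tumour and metastasis. Alternatives included quantile normalization and median centring, both run on the levels of the 14218 genes and not on all 31099 probe sets. The array medians of 5.98 to 6.06 are those of all probe sets. Further alternatives were a filter on dim genes, other choices of probe set and another variance prior. Rat as a random or fixed block and leaving out each array were run too. Leaving out 3 arrays with pancreatic transcripts or all of rat 7 was added after seeing the data.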

Additional observations from a re-analysis of the deposited data

Results flagged for a closer look

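The tumour-liver difference changed between day 10 and day 25 for 12 of 169 listed genes, by the interaction test of the limma fit (day 25 minus day 10). Of all genes 1.46% were called, and the lists were chosen with earlier results of these data known. Of the 12, 8 are genes of lipid handling, 4 are markers of other cells and none is one of the 7 enzymes. It changed by -0.79 for Npc2, a carrier of cholesterol out of lysosomes (adjusted p = 0.0363), and by -1.34 for Mylip (adjusted p = 0.0348). Among the genes of efflux and storage it changed by -1.02 for the exporter Abcg1 (adjusted p = 0.0271), -1.99 for Ch25h (adjusted p = 0.0118) and -1.29 for the cholesteryl ester hydrolase Nceh1 (adjusted p = 0.0382). Among the fatty acid synthesis genes it changed by 1.44 for Acacb (adjusted p = 0.025), 2.47 for Acly (adjusted p = 0.039) and 2.72 for Fasn (adjusted p = 0.0473). Of the macrophage markers it changed by -1.10 for Cd68 (adjusted p = 0.0313) and -1.42 for Gpnmb (adjusted p = 0.039), and of the neutrophil markers by -1.69 for Csf3r (adjusted p = 0.0377) and -2.75 for Il1r2 (adjusted p = 0.0125), the same direction as the genes of uptake, efflux and storage; the part of these cells was not tested. The 3 fatty acid genes fell in day 25 livers against day 10 livers (Acacb -1.73, Acly -2.92 and Fasn -3.03), and Mylip, Npc2, Abcg1 and Nceh1 rose there. No group has the 4 samples that a search for outlying arrays needs.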

How the results depend on the processing

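No called difference of an enzyme reversed under any alternative run, and no called difference of a listed gene under quantile normalization or median centring. Of 1925 enzyme differences under alternatives, 48 had another sign, all uncalled in both, as had 85 and 92 uncalled differences of the 169 listed genes over 12 comparisons under quantile normalization and median centring. Median centring shifted the median of all genes by -0.31 for tumour against liver at day 10, -0.22 at day 15, -0.16 at day 25 and -0.18 for metastasis against liver. Nsdhl and Sc5d in tumours and metastases, Fdft1 in day 10 tumours and Fdps between liver days were called under every alternative run. Of enzymes called, the tumour to liver count at day 25 (2) was 4 without rat 7, and the day 25 to day 10 liver count (2) was 4 without the 3 pancreatic arrays and 1 without rat 7. Leaving out 1 array gave 3 to 6 enzymes called for tumour against liver at day 10, 2 to 4 at day 25, 2 to 4 for metastasis against liver and 1 to 4 for liver day 25 against day 10. Of the 11 other synthesis genes, 7 in place of 4 were called for tumour against liver at day 10 under median centring, and 1 in place of 0 for tumour day 25 against day 10 without the pancreatic arrays. Between day 25 and day 10 livers 2 in place of 1 were called under quantile normalization, median centring, the dim-gene filter and without rat 7, and 0 to 3 without 1 array. Between day 25 and day 15 livers 2 in place of 5 were called under quantile normalization, 3 under median centring and 0 to 7 without 1 array. For the interaction 1 in place of 0 was called under the dim-gene filter, with rat as a random replicate block, without the pancreatic arrays and without rat 7, and 0 to 1 without 1 array. Rat as a random replicate block (correlation 0.1363) moved the interaction calls over all genes to 402, against 208, and the day 15 to day 10 liver calls to 1, against 4, and changed no call of an enzyme; rat as a fixed block ended only that of Lss at day 10. The causes of these shifts were not tested. Leaving out an array of a group leaves 2, whose spread is taken as that of the other groups.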
